A study of Rattus norvegicus with 6 samples.

Results

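The genes described here are 9 regulators of Wnt signalling: the secreted antagonists Sfrp1, Sfrp2, Sfrp4, Dkk2, Dkk3 and Wif1, the ligands Wnt5a and Wnt5b, and Axin2, an intracellular feedback target of the pathway. They were selected by gene symbol in the annotation of the array. All 9 were found, each with 1 probe set (a group of short oligonucleotides read as 1 value), among 18166 genes with a symbol of their own. Of the 9, 7 passed a filter on mean signal over the arrays, set at log2 6.74 or an intensity of 107, the median of all values. Sfrp1 and Dkk2 did not pass, and their values are given as a description.

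The cells were stem cells taken from the skeletal muscle of male rats by plating and grown in culture, in 6 groups with 1 Affymetrix array each. Their titles are LZ serum, OZ serum, cholesterol, fatty acid, and high and low glucose control. Cholesterol was given at 100 mg/dl on a cyclodextrin carrier, and the alternative lipid was sodium palmitate, for which no dose is stated. Neither the cyclodextrin or glucose content of each group, nor the meaning of LZ and OZ, nor the control that belongs to each treatment is given in the sources used here, so each lipid library was set against both controls. With 1 array a group there is no replicate error and no test, every difference describes these 6 libraries, and the order of neighbouring libraries cannot be judged against a spread.

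Wnt proteins are lipid-modified ligands that bind Frizzled receptors. With the coreceptors Lrp5 and Lrp6 they stabilise beta-catenin, which acts with TCF/LEF factors on target genes. Secreted frizzled-related proteins and Wif1 bind Wnt ligands outside the cell, and Dickkopf proteins such as Dkk2 bind the coreceptors. In muscle, Wnt signals are known to act on satellite cells, the resident myogenic stem cells, and on the fibroblast-like progenitors around them.

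Median intensity ran from 105 to 109 over the 6 libraries. Of 10 mesenchymal and fibroblast markers, 9 were annotated and passed the filter on their mean. Of these, Lum was below the filter level in the low glucose control, cholesterol and fatty acid libraries, and the other 8 were above it in every library, with summed intensities of the 9 from 35087 with fatty acid to 51247 with LZ serum. Of 9 annotated myogenic markers, 4 passed the filter, and the defining genes had signals close to or under the filter level: Pax7 lay between 119 and 153, Myod1 between 72.2 and 89.3 and Myf5 between 62.5 and 72.7. The other myogenic markers past the filter were Itga7, between 178 and 255, Des, between 114 and 133, and Ckm, between 101 and 117. The libraries therefore carry little signal for Pax7, Myod1 and Myf5. Levels of different probe sets are not directly comparable. In a culture measured as a whole, fewer cells of a type and less RNA per cell cannot be told apart.

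Among the secreted frizzled-related proteins, Sfrp2 stood out in the cholesterol library. Sfrp2 (probe set 17739411) encodes a secreted protein with a Frizzled-like cysteine-rich domain. Its intensity was 2127 in the cholesterol library, against 318 in the high glucose control, 255 in the low glucose control, 299 with LZ serum, 218 with OZ serum and 203 with fatty acid. The other 5 libraries thus lay within a 1.57-fold range of each other, and the cholesterol library lay outside it. It was 6.69-fold above the high glucose and 8.33-fold above the low glucose control (log2 differences 2.74 and 3.06), and 7.11-fold and 9.75-fold above the LZ and OZ serum libraries. All 6 values were above the filter level. By its smaller difference from the controls, Sfrp2 was in place 4 from the top of 11540 genes, and it was in place 1 when the cholesterol library was set against the fatty acid library (10.5-fold, log2 3.39).

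Among markers of leukocytes and macrophages, Cd68 and Cd14 were high in the same library. The summed intensity of all 6 markers was 1694 with cholesterol and between 711 and 1115 in the other 5 libraries. Of the 6 markers, Cd68 and Cd14 passed the filter: Cd68 was 331 with cholesterol and between 109 and 148 elsewhere, and Cd14 was 1121 against 341 to 785. Ptprc, the common leukocyte antigen, was lowest with cholesterol, at 42.8, and Itgam, Adgre1 and Csf1r were, like Ptprc, below the filter level in every library. The part of these markers in the Sfrp2 difference was not tested.

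The window around the annotated start of Sfrp2 is shown because Sfrp2 had the largest difference of the 9 genes. It is the RefSeq window on GRCr8, chr2:171387286-171387585 on the plus strand, from 250 bases before the start to 50 after it, and the capitals mark the 50 bases from the start on.
Sfrp2: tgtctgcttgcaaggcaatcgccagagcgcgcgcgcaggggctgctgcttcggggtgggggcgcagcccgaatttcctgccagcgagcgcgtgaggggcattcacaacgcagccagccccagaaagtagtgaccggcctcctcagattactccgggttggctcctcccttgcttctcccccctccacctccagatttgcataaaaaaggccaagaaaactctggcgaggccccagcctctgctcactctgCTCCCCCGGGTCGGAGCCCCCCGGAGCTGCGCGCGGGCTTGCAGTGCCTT
It holds 65.0% G and C and 21 CpG pairs, against medians of 51.7% and 7 over 33469 windows of 300 bases, and 77.4% of the windows held fewer CpG pairs. On both strands it was searched for CTTTGAT (TCF/LEF), TGANTCA (AP-1) and an NF-kB motif, and none was in it. These motifs occur in 3.63%, 7.33% and 1.11% of all windows. A match or its absence describes the letters of the window alone.

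**Figure D1:**
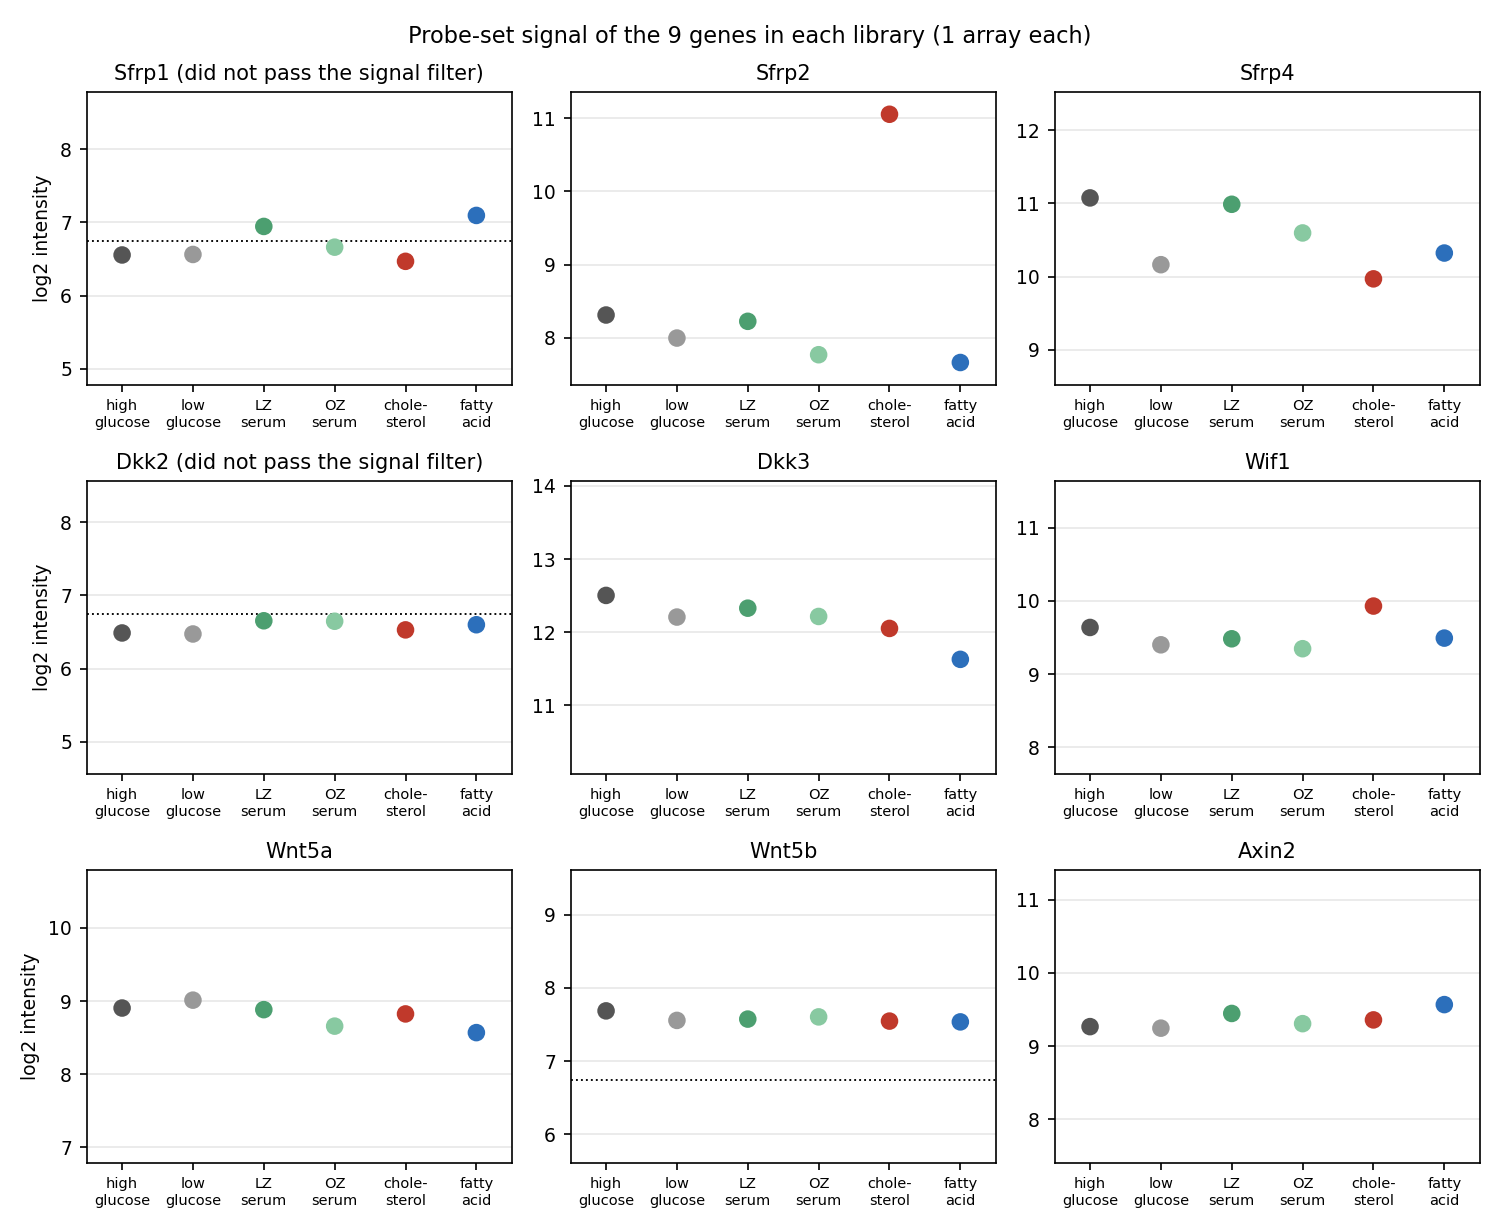
Log2 intensity (vertical axis, a span of 4 log2 units in each panel, with its own range) of the 9 genes in each of the 6 libraries, 1 point per array. The dotted line, where it falls in the panel, is the filter level of log2 6.74. Sfrp2 stands at 11.05 in the cholesterol library and between 7.66 and 8.31 in the others, and the Dkk3 point of the fatty acid library, 11.63, is the lowest of its panel.

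Sfrp4 (probe set 17719660), a secreted antagonist of the same family, varied most between libraries that had received no purified lipid. Its intensity was 2157 in the high glucose control and 2031 with LZ serum, and it was 1548 with OZ serum, 1280 with fatty acid, 1146 in the low glucose control and 1002 with cholesterol. The values thus ran in an unbroken series in which both lipid libraries lay near the low glucose control. The controls differed 1.88-fold (log2 0.91), which put Sfrp4 in place 45 of 11540 genes for a higher signal in the high glucose control. Against the high glucose control alone, Sfrp4 was 2.15-fold lower with cholesterol (log2 -1.11). Against the low glucose control it was 1.14-fold lower (log2 -0.19), so this difference depends on the reference. The fatty acid library lay between the controls, with log2 differences of -0.75 from the high and 0.16 from the low glucose control.

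Sfrp1 (probe set 17712432), another gene of this family, had intensities of 137 with fatty acid, 123 with LZ serum, 101 with OZ serum, 94.5 and 94.1 in the low and high glucose controls and 88.6 with cholesterol. The fatty acid and LZ serum values were above the filter level and the other 4 below it. The fatty acid library was 1.45-fold above the nearer control and 1.11-fold above the LZ serum library.

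Wif1 (probe set 17828435), which binds Wnt ligands outside the cell, was highest in the cholesterol library. Its intensity there was 976, against 797 in the high glucose control, 720 with fatty acid, 716 with LZ serum, 676 in the low glucose control and 652 with OZ serum. The cholesterol value lay above the range of the other 5, 1.22-fold over the nearest, the high glucose control (log2 0.29).

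Of the Dickkopf proteins, Dkk3 (probe set 17636325) is a divergent secreted member of the family, and it was low in the fatty acid library. Its intensity was 3168 there and 4246 with cholesterol, against 4729 in the low glucose control, 4756 with OZ serum, 5144 with LZ serum and 5805 in the high glucose control. Both lipid libraries lay below the range of the other 4. The fatty acid library was 1.83-fold below the high and 1.49-fold below the low glucose control (log2 -0.87 and -0.58), short of 2-fold, in place 720 of 11540 from the lowest. The summed signal of the mesenchymal and fibroblast markers was also lowest in that library, 35087, followed by 42409 with cholesterol and 47065 to 51247 in the others. A few bright genes carry this sum. Pdgfra, Pdgfrb, Thy1, Nt5e, Col1a1, Col3a1 and Lum were lower with fatty acid than in both controls. Their smallest log2 differences ran from -0.33 (Thy1) to -1.05 (Col3a1). Dcn was 8256 with fatty acid, between the high (8821) and low glucose controls (5614), and Tcf4, at 2322, was highest there. Tcf4 is a gene other than the TCF/LEF factor Tcf7l2, which was 315 with fatty acid, against 617 in the high and 512 in the low glucose control. The part of these markers in the Dkk3 difference was not tested. Dkk2 (probe set 17742689), a Dickkopf protein that can block or activate the pathway depending on context, lay between 88.8 and 101 in all 6 libraries, below the filter level.

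The ligands showed small differences. Wnt5a (probe set 17705906), which signals largely without beta-catenin, through receptors such as Ror2, had intensities of 517 in the low and 479 in the high glucose control, 472 with LZ serum, 453 with cholesterol, 404 with OZ serum and 379.9 with fatty acid. The fatty acid value was the lowest, 1.26-fold below the nearer control (log2 -0.34), and the OZ serum value was near it. Wnt5b (probe set 17794339), the closest relative of Wnt5a, lay between 186 and 206 in all libraries, a range of 0.15 log2 units.

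Axin2 (probe set 17652300) encodes a scaffold of the complex that degrades beta-catenin and is a widely used readout of Wnt signalling through beta-catenin. Its intensity was 758 with fatty acid, 697 with LZ serum, 656 with cholesterol, 633 with OZ serum, 615 in the high and 606 in the low glucose control. All 6 values lay within 0.32 log2 units. The fatty acid library was highest, 1.23-fold above the nearer control (log2 0.30), and the cholesterol library, where Sfrp2 was high, was 1.07-fold above it (log2 0.09). The window of Axin2 is shown because of this role as a readout. It is GRCr8 chr10:94398535-94398834, plus strand, cut as for Sfrp2, and the capitals mark a match to the TCF/LEF letters CTTTGAT, which starts 132 bases before the annotated start.
Axin2: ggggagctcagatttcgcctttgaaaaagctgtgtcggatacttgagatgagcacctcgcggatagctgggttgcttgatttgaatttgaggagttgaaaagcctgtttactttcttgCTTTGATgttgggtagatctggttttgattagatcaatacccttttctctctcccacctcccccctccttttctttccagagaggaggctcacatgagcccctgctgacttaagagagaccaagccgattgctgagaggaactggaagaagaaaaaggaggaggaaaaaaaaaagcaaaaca
Of the 4 members with a window in the RefSeq table (Sfrp2, Wif1, Wnt5a and Axin2), Axin2 alone held a match to any of the 3 motifs. Taken singly, the motifs occur in 3.63% (TCF/LEF), 7.33% (AP-1) and 1.11% (NF-kB) of all windows. The share with any of the 3 was not counted, and a count over 4 windows is a description.

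At 2-fold against both controls, 1 of the 7 members past the filter was higher with cholesterol, where 0.381% of all genes were, and none was lower, where 0.806% were. With fatty acid, none was higher or lower, against 0.641% and 2.01% of all genes. Counted by any size, 3 of 7 were higher and 4 lower than both controls with cholesterol, where 36.3% and 33.6% of all genes were. With fatty acid, 1 was higher, 4 were lower and the other 2 lay between the controls, where 40.4% and 39.7% of all genes were higher and lower. The 2 lipids share their controls, so these counts are not independent of each other. The median of the 7 members was -0.34 against the high and -0.02 against the low glucose control with fatty acid, and -0.08 and -0.01 with cholesterol, beside 0.01 and -0.00 for all genes with fatty acid and 0.01 and 0.00 with cholesterol.

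**Figure D2:**
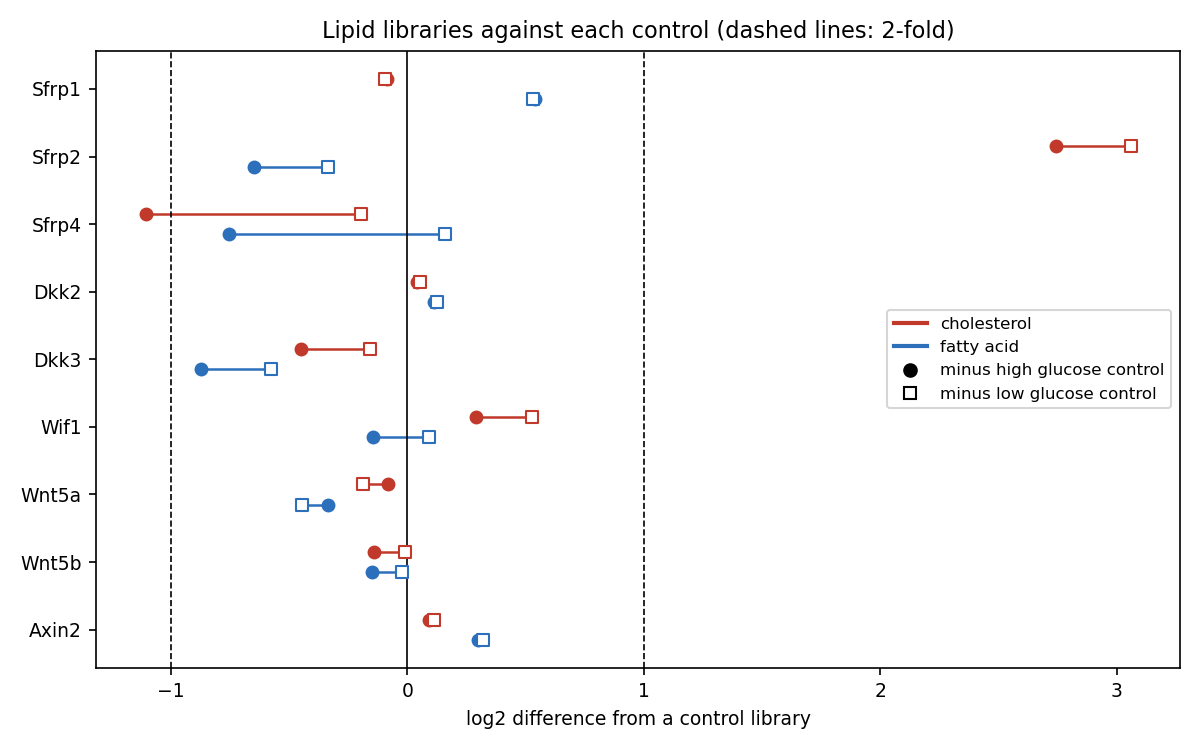
Log2 difference (horizontal axis) of the cholesterol (red) and fatty acid (blue) libraries from the high glucose control (filled circles) and the low glucose control (open squares) for each of the 9 genes, with 2-fold marked by dashed lines. A line joins both differences of a library. Sfrp2 with cholesterol, at 2.74 and 3.06, is beyond 2-fold against both controls, and Sfrp4 with cholesterol, at -1.11 and -0.19, is beyond it against 1 control. Sfrp1 and Dkk2 did not pass the signal filter.

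Set directly against the fatty acid library, the cholesterol library had 1 of 7 members at least 2-fold higher, Sfrp2, beside 1.92% of all genes, and none at least 2-fold lower, beside 0.901%. Below 2-fold, Wif1 was 1.35-fold and Dkk3 1.34-fold higher with cholesterol, Sfrp4 1.28-fold and Axin2 1.16-fold higher with fatty acid. The median of the 7 members was 0.26 and that of all genes 0.01.

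The OZ and LZ serum libraries differed little. No member was at least 2-fold apart, beside 0% of all genes higher and 0.026% lower with OZ serum. Counting by any size, 6 of 7 members were lower with OZ than with LZ serum, as were 58.1% of all genes, and the medians were -0.14 for the members and -0.03 for all genes. The largest of these differences were in Sfrp2 (1.37-fold, log2 -0.46) and Sfrp4 (1.31-fold, log2 -0.39), in places 62 and 125 of 11540 from the lowest. The high glucose control was higher than the low glucose control in 6 of 7 members, with a median of 0.24, while 48.9% of all genes were higher and their median was -0.01. Sfrp4 had the largest of these, and Wnt5a was the member with the opposite sign. No member was 2-fold apart there, where 0.251% of all genes were higher and 0.104% lower. Against both controls together, the serum libraries held no member at 2-fold, and 0% of all genes were higher or lower.

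The genes with the pattern most like Sfrp2 over the 6 libraries, by the root mean square difference of log2 values centred on each gene's mean, were Mlana (0.31), Tlr2 (0.35) and Cx3cl1 (0.41). Mlana encodes a melanosome antigen, Tlr2 a receptor for bacterial lipoproteins and Cx3cl1 a membrane-bound chemokine. In the cholesterol library they had intensities of 1078, 1003 and 867, and over the other 5 libraries they ranged from 151 to 269, 111 to 189.7 and 122 to 281. For Sfrp4 the nearest were Kcnj15, a potassium channel (0.06), Slc40a1, the iron exporter ferroportin (0.10), and Hopx, a homeodomain protein (0.15). Kcnj15 followed it from 256 in the high glucose control and 267 with LZ serum to 152 in the low glucose control and 133 with cholesterol. Likeness over 6 libraries that differ in few conditions is a description of these libraries.

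**Figure D3:**
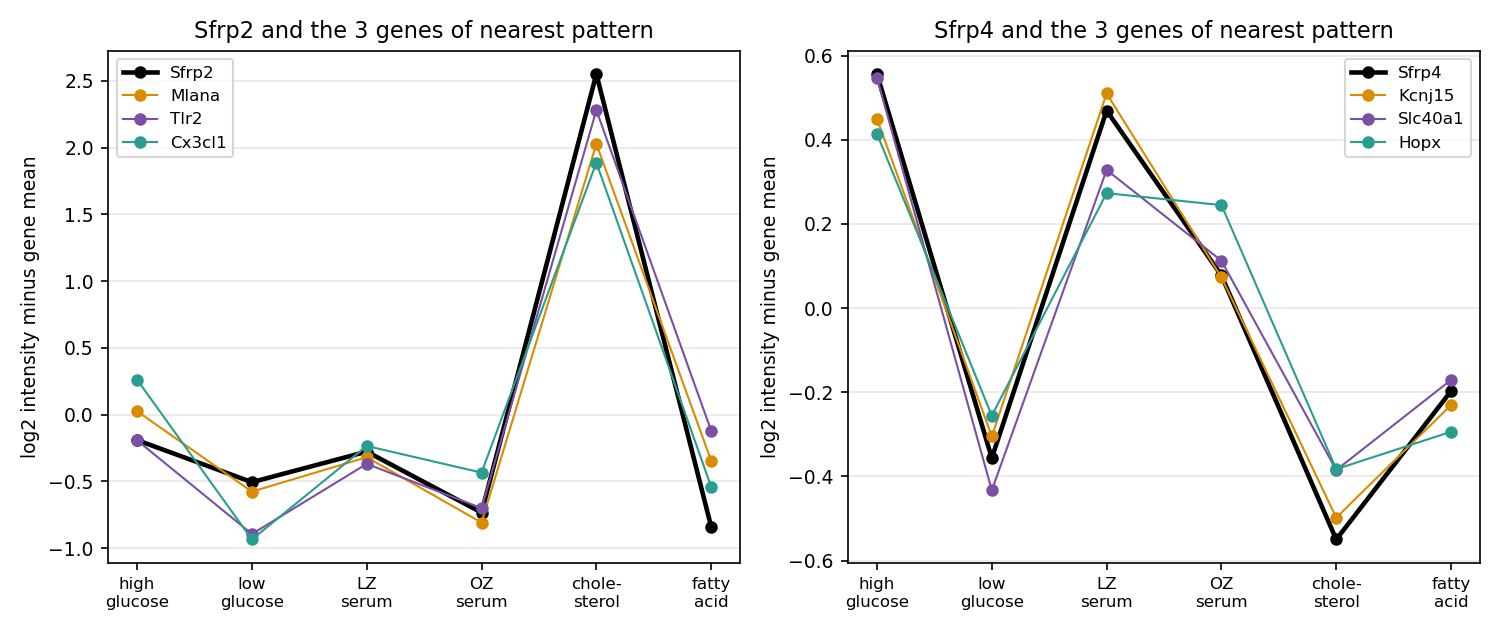
Log2 intensity minus each gene's mean (vertical axis) over the 6 libraries for Sfrp2 and Sfrp4 (black) and the 3 genes nearest to each in pattern, 1 point per array. The lines join libraries only to guide the eye, and the vertical ranges of the panels differ. The Sfrp2 panel has its peak in the cholesterol library, and the Sfrp4 panel has high values in the high glucose control and LZ serum libraries and low values in the low glucose control, cholesterol and fatty acid libraries.

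Beyond the 9 genes, 8 lists of Wnt pathway genes by role held 122 genes, of which 114 were annotated and 87 passed the filter. The other 8 are not analysed here. With cholesterol, 2 of the 87 (2.30%) were at least 2-fold lower than both controls and none was higher. With fatty acid, 8 (9.20%) were at least 2-fold lower and none was higher. Among all genes, 0.806% were lower and 0.381% higher with cholesterol, and 2.01% were lower and 0.641% higher with fatty acid. The lists were chosen with earlier results of these data known, so these shares are a description.

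Among receptors and related genes, 12 of 17 were lower than both controls with fatty acid and 4 higher, beside 39.7% and 40.4% of all genes. The 17 include Vangl1, Vangl2, Prickle1 and Prickle2, which are not themselves receptors. The medians of the 17 were -0.16 and -0.42 against the high and low glucose controls, beside 0.01 and -0.00 for all genes. Fzd8 was low with both lipids. This Frizzled receptor had intensities of 789 with cholesterol and 679.8 with fatty acid, against 1608 to 1914 in the other 4 libraries, which is 2.17-fold and 2.52-fold below the nearer control. Fzd2, another Frizzled receptor, was low with fatty acid, at 881 against 1901 with cholesterol and 2147 to 2526 in the other 4 (2.59-fold below the nearer control).

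Of the other ligands, Wnt4 differed most. Its intensity was 1238 with cholesterol and 248 with fatty acid, and 596 to 842 in the other 4 libraries, so the lipid libraries lay on opposite sides of that range. It was 2.66-fold below the nearer control with fatty acid and 1.47-fold above it with cholesterol, a 4.99-fold difference between the lipids. It was the only one of 9 other ligands past the filter at 2-fold in any of the 6 comparisons. Of all genes, 0% to 2.01% were at 2-fold in 1 direction of a single comparison, and the share over any of the 6 was not counted.

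Rspo1, an R-spondin that strengthens Wnt signals at the receptor, had an intensity of 733 with fatty acid, against 2276 with cholesterol and 2676 to 3340.0 in the other 4 libraries. It was 3.70-fold below the nearer control with fatty acid.

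Among other secreted or surface-bound modulators, Gpc4, a glypican, was low with both lipids, at 1971 with cholesterol and 1641 with fatty acid against 4092 to 4349 in the other 4 (2.12-fold and 2.54-fold below the nearer control). Apcdd1, a membrane-bound Wnt inhibitor, was 2.07-fold lower with fatty acid, at 72.4 against 149.8 and 172 in the controls. That value was below the filter level, and adding an offset of 32 brought the log2 difference to -0.80, short of 2-fold.

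Feedback and target genes of the pathway lay on both sides of the controls. Of 15 past the filter, 4 were higher and 7 lower than both controls with fatty acid, and 2 higher and 8 lower with cholesterol. Among all genes 40.4% were higher and 39.7% lower with fatty acid, and 36.3% and 33.6% with cholesterol. With fatty acid, 3 of the 15 were at least 2-fold lower than both controls (Ccn5, Bambi and Apcdd1, given above), beside 2.01% of all genes. None was 2-fold higher, beside 0.641%, and with cholesterol none was 2-fold apart from both controls. Ccn5, a matricellular protein, was 3.73-fold lower with fatty acid (502 against 1548 with cholesterol and 1578 to 2068 in the other 4). Bambi, a decoy receptor of the TGF-beta family, was 2.90-fold lower with fatty acid and 1.90-fold lower with cholesterol. Myc was 2.38-fold lower with cholesterol than with fatty acid, at 695 and 1657, with 814 and 1099.6 in the controls. Destruction complex and Dishevelled genes (16), nuclear factors (17) and genes of Wnt lipidation and secretion (6) held no gene at 2-fold in any of the 6 comparisons. Of the nuclear factors, 10 were lower and 5 higher than both controls with fatty acid, beside 39.7% and 40.4% of all genes. Their medians were -0.23 and -0.24 against the high and low glucose controls, beside 0.01 and -0.00 for all genes.

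**Figure D4:**
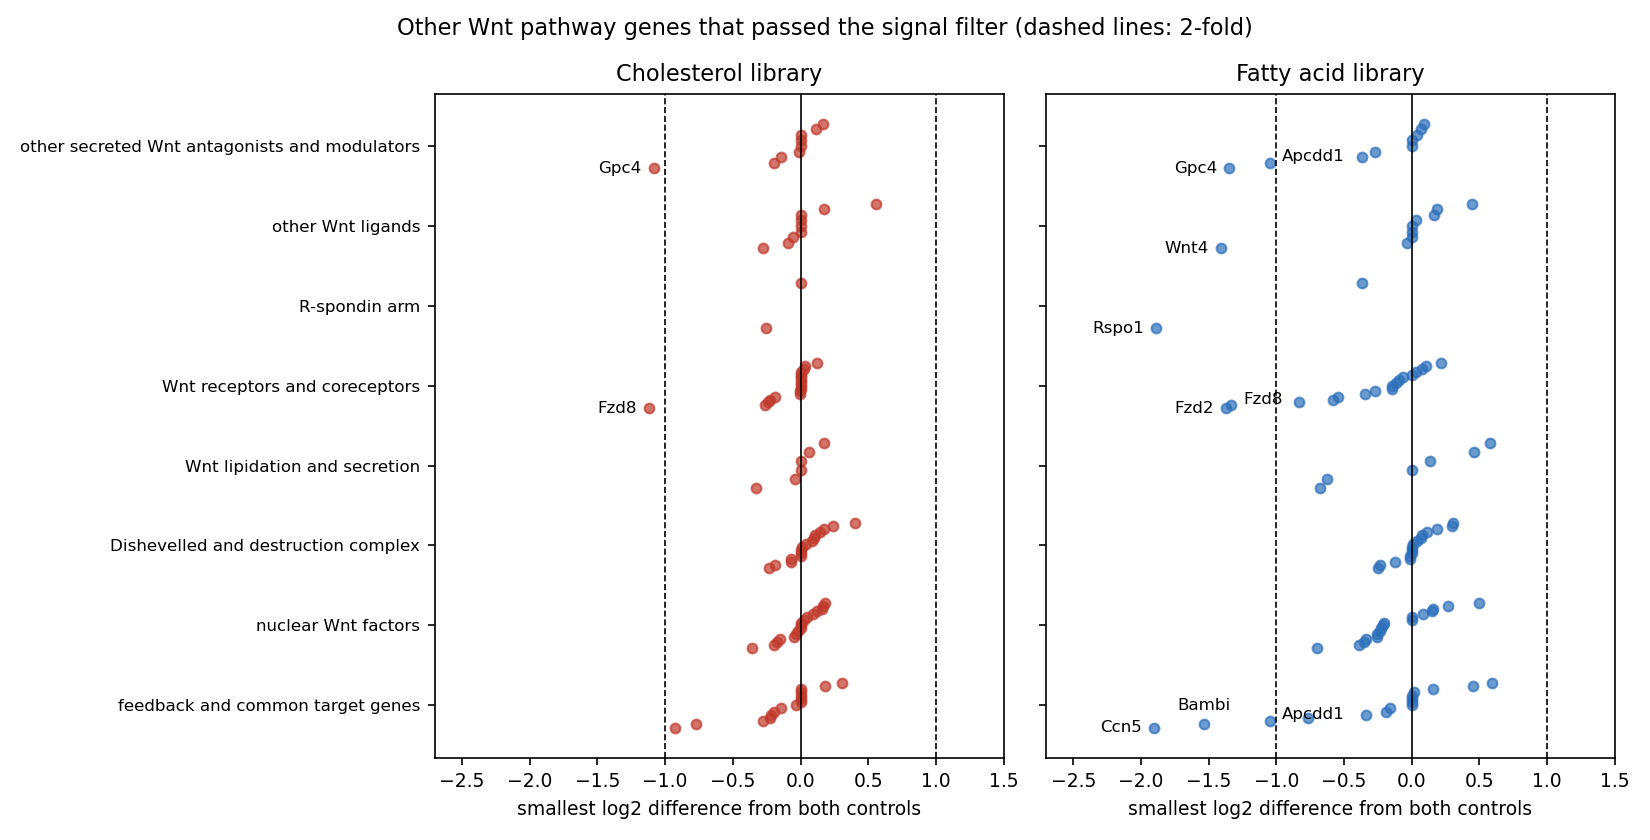
Smallest log2 difference (horizontal axis) of the cholesterol library (left) and the fatty acid library (right) from both controls for each gene of the 8 pathway lists that passed the filter, 1 point per gene and list. A gene that lay between the controls is at 0, dashed lines mark 2-fold, and genes beyond it are named. Fzd8 and Gpc4 are beyond it with cholesterol, and 8 genes are with fatty acid, of which Apcdd1 stands in 2 lists.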

How the data were processed

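The authors deposited linear intensity values for 36685 probe sets on 6 Affymetrix rat gene arrays, and each array's title gave its group. How they corrected, summarised and normalized the scans is not given in the sources used here, and arrays scaled alike show no change in total RNA. Log2 was taken without an offset. Of the probe sets, 18511 had 1 gene symbol, and a gene with several took the one with the highest mean, which left 18166 genes, 11540 of them past the filter. A gene's value against several libraries was its smallest log2 difference where every pair had the same sign, or else 0, with 2-fold as the threshold. Named pathway genes were those at 2-fold in any comparison, and nearest patterns were sought for members past the filter that spanned at least 1 log2 unit. The members and lists were chosen with earlier results of these data known. Endothelial, adipocyte, keratinocyte, smooth muscle and Schwann cell markers were measured too: summed intensities over the 6 libraries ran from 172 to 206, 376 to 445, 272 to 316, 12085 to 13648 and 1268 to 1728. The number of arrays limits the precision. Alternatives were quantile normalization, median centring, cyclic loess, an offset of 32, the mean of probe sets, a 1.5-fold threshold, no filter or a stricter one, and single references or their mean. The stricter filter asked for a highest value over the 6 libraries of at least log2 8.68, the 75th percentile of all values. The mean of probe sets could not alter the members, which have 1 probe set each. The software was limma 3.58.1 in R 4.3.3 for cyclic loess, and otherwise Python 3.11.15, pandas 2.3.3, numpy 2.4.6 and matplotlib 3.10.9.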

Additional observations from a re-analysis of the deposited data

How the results depend on the processing

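The count of members at 2-fold was the same in 59 of 61 alternatives over the 6 comparisons. Of the alternatives, the mean of probe sets could change no member, as each has 1 probe set. The stricter filter took the highest value of a gene, not its mean, against log2 8.68. Sfrp2 passed it through its cholesterol value alone. Its mean of 8.50 was under that level, so on the mean it would not have been counted. Against the high glucose control alone, 2 members were 2-fold apart with cholesterol, as Sfrp4 (-1.11) joined Sfrp2. At a 1.5-fold threshold, 1 member, Sfrp4, differed between the controls. Sfrp2 with cholesterol stayed between 2.63 and 3.06 over its alternatives, including both sera as further references, which were added after seeing the data. Dkk3 with fatty acid stayed between -0.52 and -0.63 over the scalings and the offset. Of 54 member differences, 4 turned sign under a scaling, all of Dkk2 or Wnt5b and within 0.05 of 0. Apcdd1 with fatty acid was at -0.80 with an offset of 32. Under every scaling the median difference of all genes stayed within 0.064 of 0. No paired analysis was possible because each group holds 1 array. Signals near the filter level (Sfrp1, Dkk2 and Wnt5b) limit what these arrays can show of those genes. Sfrp2 had signals as low as Wnt5b with fatty acid (203) and OZ serum (218), so its ratios to those libraries share this limit.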
